A study of Sus scrofa with 15 samples.

Results

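The HOX genes are the homeobox transcription factor genes that lie in the HOXA, HOXB, HOXC and HOXD clusters. The 38 genes considered were taken by symbol and cluster membership and not by their levels, though earlier results of these data were known. Of them, 33 could be matched to a gene identifier among the 30477 genes counted in each library, and 29 passed the filter on low counts and were tested. HOXA4, HOXA6, HOXA13, HOXB9 and HOXD13 could not be matched by symbol and were not analysed here.

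The libraries were made from total RNA of the subcutaneous backfat of 15 Iberian pigs, a fatty native breed, with 5 pigs on each diet. C was the control diet, DOP a compound feed made with dry olive pulp, and WCOC a compound feed given together with silage of wet crude olive cake. All biopsies were taken from 1 site, the dorsal lumbar region, so no other depot served as a reference for a HOX level. Each diet was given in a pen of its own and the sequenced pigs were picked mainly for the quantity and quality of their RNA, so pen and diet cannot be told apart.

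HOX genes are laid out along their clusters in the order in which they act along the body axis, from paralog group 1 at the anterior end to group 13 at the posterior end. Genes of the same number in different clusters are paralogs with closely related homeoboxes, the stretch that codes for the DNA-binding homeodomain. Adult fat cells, their progenitors and fibroblasts keep a HOX code from development, and fat depots are known to differ in it, with HOXC10 among the genes that mark posterior subcutaneous depots and HOXA5 among those of more anterior ones. In bulk tissue, fewer cells of a type and less RNA per cell cannot be told apart.

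The homeoboxes of HOXC10 and HOXB7, genes called between diets, and of HOXC9, the neighbour of HOXC10, are shown because HOX genes are most alike in this stretch, which bears on how reads are told apart. They are the 180 bases of the coding sequence in the RefSeq models of Sscrofa11.1, each within 1 coding exon, written in the direction of the gene, and capitals mark the bases that differ from HOXC10 at the same position. HOXC10 lies at chr5:19201900-19202079 on the plus strand, HOXC9 at chr5:19215320-19215499 on the plus strand and HOXB7 at chr12:24861829-24862008 on the minus strand.
HOXC10: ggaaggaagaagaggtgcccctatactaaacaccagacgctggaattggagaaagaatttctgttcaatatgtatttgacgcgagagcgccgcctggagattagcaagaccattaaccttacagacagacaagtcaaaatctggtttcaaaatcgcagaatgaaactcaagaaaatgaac
HOXC9: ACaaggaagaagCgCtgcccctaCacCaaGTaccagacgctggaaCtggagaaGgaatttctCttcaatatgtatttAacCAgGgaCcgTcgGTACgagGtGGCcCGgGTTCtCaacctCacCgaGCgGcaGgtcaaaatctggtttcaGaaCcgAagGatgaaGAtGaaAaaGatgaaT
HOXB7: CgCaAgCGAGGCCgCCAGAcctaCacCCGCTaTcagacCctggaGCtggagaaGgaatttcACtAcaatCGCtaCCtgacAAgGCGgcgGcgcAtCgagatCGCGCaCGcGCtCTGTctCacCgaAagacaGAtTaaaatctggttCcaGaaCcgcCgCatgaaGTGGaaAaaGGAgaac
HOXC10 shared 73.3% of these bases with HOXC9 and 58.9% with HOXB7. Closer matches, not shown, included HOXD10 (83.3%) and HOXA10 (81.7%) for HOXC10. For HOXB7 they included HOXB6 (88.3%, with a longest shared run of 42 bases). Over whole transcripts, no run of 50 bases was shared between HOXA9, HOXB7 or HOXC10 and any other member with a RefSeq model, whereas HOXA5 shared 208 such runs with HOXA6, HOXA6 shared 59 with HOXA7, and HOXD9 shared 37 with HOXD11. The HOXA3 gene model spans HOXA4, HOXA5 and HOXA6 on the same strand, and HOXA9 is overlapped by an antisense gene, LOC106506841. HOXA5 also overlaps HOXA6 on the same strand, and HOXD9 overlaps HOXD10 and HOXD11. Reads in such stretches can be ambiguous whatever the strand setting. Antisense genes also overlap HOXA3, HOXA7, HOXA10, HOXB3, HOXB5, HOXB6, HOXC6, HOXC8 and HOXC9. The strand setting of the counting is not given in the sources used here. Counts of members with an antisense overlap are uncertain to that extent. HOXB7 and HOXC10 overlapped no other RefSeq gene.

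The libraries held between 22373715 and 34745218 counts on genes, and the HOX genes together took between 0.0298% and 0.0607% of them. C 1 to C 4 and all WCOC libraries were sequenced on 1 flow cell (flow cell A), and C 5 and all DOP libraries on another. Within flow cell A, C 1 to C 4 and WCOC 1 to WCOC 3 were on lane 2, and WCOC 4 and WCOC 5 on lane 8. The libraries of the other flow cell were all on its lane 8. The adipocyte markers were high in every library, with a summed level between 11786 and 20005 CPM over 9 genes and ADIPOQ as the highest. Skeletal muscle markers, of which 6 of 12 could be matched, ranged from 17.1 to 41697 summed CPM, and DOP 2, DOP 4 and DOP 5 were the libraries over 5000. ACTA1, the skeletal muscle actin gene, was the highest of them, and none of the 6 was at 0 in all libraries. Markers of epidermis and hair follicle summed to between 1.97 and 122 CPM, those of mesothelium to between 0.441 and 8.54 CPM, and those of endothelium to between 851 and 1531 CPM.

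HOXA5, in the middle of its cluster, made up the largest part of the summed HOX level of backfat. On the scale of CPM (counts on a gene relative to the TMM-scaled total of the library) per kilobase of exon, which allows genes to be compared, groups 4 to 8 made up 68.4% of the summed HOX level over the 15 libraries, with a range from 61.2% to 77.3%. Groups 9 and 10 made up 18.2% (12.2% to 25.9%), groups 1 to 3 made up 10.7% (8.69% to 12.97%) and groups 11 to 13 made up 2.73% (1.69% to 4.32%). Without HOXA5, groups 4 to 8 made up 45.4%, groups 9 and 10 31.2%, groups 1 to 3 18.7% and groups 11 to 13 4.73% of the rest. By cluster, HOXA held 55.8%, HOXD 19.2%, HOXC 16.1% and HOXB 8.93%, while without HOXA5 the HOXD cluster held the most, 33.4%, and HOXA 23.2%. These shares cover 31 members. HOXB4 and HOXD4 have no RefSeq model and do not enter them. Nor do the unmatched HOXA4, HOXA6, HOXA13, HOXB9 and HOXD13, whose levels are unknown.

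**Figure D1:**
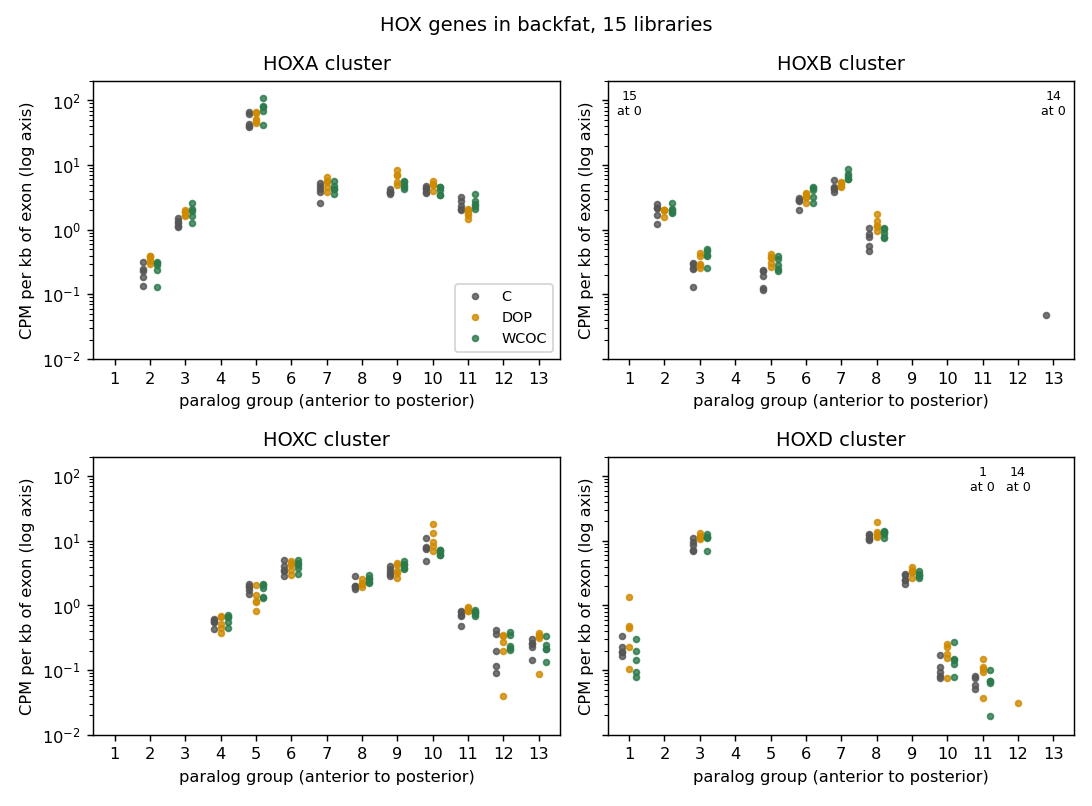
Level of each HOX gene with an exon length in the 15 libraries, as TMM-scaled CPM per kilobase of exon on a log axis, against paralog group, with 1 panel per cluster, points coloured by diet, and the number of libraries at 0 printed above a gene. HOXA5 stands highest at a mean of 60.6, HOXC is highest at HOXC10 with 8.59 and lower at HOXC13 with 0.253, and HOXB1 is at 0 in all 15 libraries.

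HOXA5, which patterns the cervical and upper thoracic region and the lung, was the highest member. Its mean was 60.6 CPM per kilobase, above 93.8% of the 11240 tested genes with an exon length. HOXD8 followed at 12.8, HOXD3 at 10.3 and HOXC10 at 8.59 CPM per kilobase. HOXB7 had 5.58, HOXA9 5.14, HOXA7 4.63, HOXA10 4.42, HOXC6 3.98 and HOXC9 3.72 CPM per kilobase. The order within this last set is not firm, since the values of HOXA9 over the libraries spanned those of its neighbours in the plot of levels by paralog group. The order below HOXA5 also depends on the length used, here the union of exons. For HOXA10, at 36.4 CPM, this union is 8229 bases but the mean transcript 3257. For HOXD3, at 36.8 CPM, both are 3563. Per kilobase of mean transcript, HOXA10 would therefore lie above HOXD3 and HOXC10. Within HOXC the level per kilobase was 0.567 for HOXC4, 3.98 for HOXC6, 2.29 for HOXC8, 3.72 for HOXC9 and 8.59 for HOXC10, and then fell to 0.783 for HOXC11, 0.252 for HOXC12 and 0.253 for HOXC13. HOXC13, which drives keratin genes in hair follicles, was near the lower end of what was tested.

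HOXB1, HOXB13, HOXD11 and HOXD12 were at or near the detection limit. HOXB1, a hindbrain gene, had 0 counts in all libraries, which allows up to 0.00709 CPM over the 423067086 counts of the 15 libraries (3 counts, counting error only). HOXD12, a distal limb gene, had 1 count in all, in DOP 2, and HOXB13, a prostate and hindgut gene, had 2 counts, both in C 5. HOXD11, a gene of the forelimb and kidney, had 100 counts over 14 libraries with at most 13 in 1 library, and did not pass the filter. Its level was 0.25, 0.17, 0.19, 0.27 and 0 CPM in C 1 to C 5, 0.12, 0.49, 0.34, 0.38 and 0.31 CPM in DOP 1 to DOP 5 and 0.33, 0.22, 0.07, 0.22 and 0.21 CPM in WCOC 1 to WCOC 5. These groups overlapped.

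Over the 29 tested HOX genes, Pearson's r of log2 CPM between pairs of libraries ran from 0.883 to 0.991 with a median of 0.971, beside 0.898 to 0.983 with a median of 0.962 over all tested genes, as a description across genes, which are not independent and share their library. DOP 5, the library with the most skeletal muscle transcripts, was the least similar to the rest, with a median r of 0.922 to the other libraries, and each of the other libraries had a median of at least 0.962. The biological coefficient of variation between pigs of a diet was 0.213 at the median of the 29 genes, against 0.187 for all 14918 tested genes. These medians are not adjusted for abundance. Against the trend of the coefficient with abundance, 25 of the 29 (86.2%) lay below it, beside 82.4% of all tested genes. HOXA10 varied least, at 0.144, and HOXD1 and HOXC12 varied most, at 0.569 and 0.448.

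**Figure D2:**
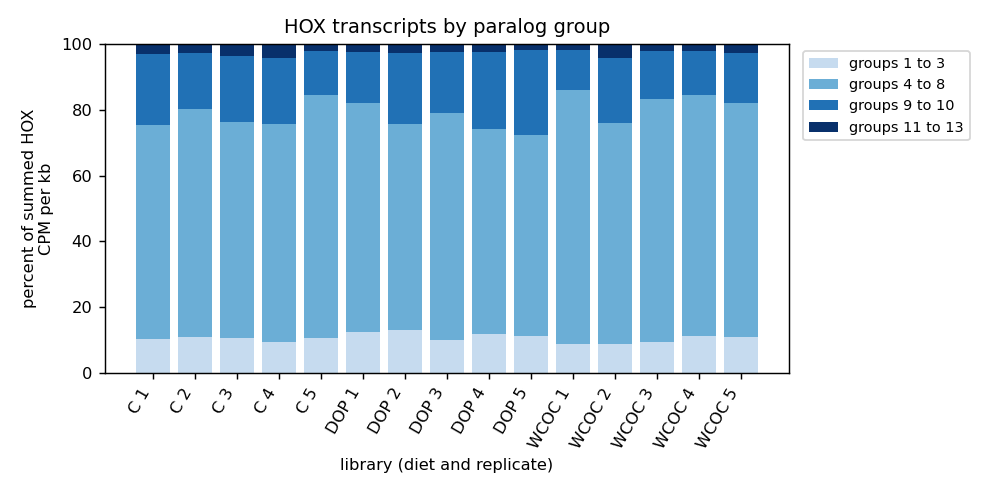
Share of the summed HOX level (CPM per kilobase of exon, in percent) taken by paralog groups 1 to 3, 4 to 8, 9 to 10 and 11 to 13 in each of the 15 libraries. Groups 4 to 8 hold between 61.2% and 77.3% in every library, and the share of groups 9 to 10 runs from 12.2% in WCOC 1 to 25.9% in DOP 5.

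In C, groups 9 and 10 took 18.5% ± 3.34, against 21.03% ± 4.06 on DOP and 14.96% ± 2.95 on WCOC (SD, 5 pigs each), with overlapping ranges. The highest DOP shares were those of the libraries rich in muscle markers, DOP 2 (21.7%), DOP 4 (23.5%) and DOP 5 (25.9%). DOP 1 (15.6%) and DOP 3 (18.46%) lay below the mean of C. The part of muscle in these shares was not tested. For groups 4 to 8 the shares were 67.9% ± 3.75, 64.9% ± 4.03 and 72.5% ± 3.84 on C, DOP and WCOC. A share falls when another rises, and HOXA5 alone weighs heavily in it.

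The comparison of DOP with C asked whether dry olive pulp in the feed came with another HOX level. HOXA9, a posterior HOX gene best known from blood progenitors and the lumbar and urogenital region, was the 1 member called, and it was higher in DOP. HOXA9 had 22.7, 25.2, 22.6, 22.4 and 21.04 CPM in C 1 to C 5, 28.5, 40.5, 40.9, 32.0 and 49.2 CPM in DOP 1 to DOP 5, and 33.1, 24.97, 31.7, 26.4 and 29.2 CPM in WCOC 1 to WCOC 5. All DOP values lay above all C values, and the C values were close together. The log2FC of HOXA9 was 0.75 ± 0.13 (SE, n = 5 each; 95% interval 0.47 to 1.02) with an adjusted p of 0.0277 in edgeR's quasi-likelihood test. A member or gene was called where the adjusted p was under 0.05 and the log2FC at least 0.58 in size, which held for 0.764% of all tested genes in this comparison, and for 0.215% with DOP higher.

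C 5, the only control library on the flow cell of the DOP libraries, had the lowest HOXA9 value of all, at 21.04 CPM. With 1 control library there, flow cell and diet cannot be told apart. With flow cell in the model, the HOXA9 log2FC was 0.86 with an adjusted p of 0.143 in edgeR. Leaving out DOP 2, DOP 4 and DOP 5, the libraries over 5000 CPM of muscle markers, it was 0.61 with an adjusted p of 0.529, resting on DOP 1 and DOP 3. The call was also lost when C 3, C 5, DOP 2, DOP 3, DOP 4 or DOP 5 was left out, with log2FC between 0.64 and 0.83 over all the omissions. Of 8 tested macrophage markers, MSR1 was the 1 called, lower in DOP. Only 1 of the 8 had a positive log2FC (median -0.50), and 4 had an unadjusted p under 0.05 in edgeR. Their summed levels were 217 to 643 CPM in C and 148 to 370 CPM in DOP. All 5 endothelial markers had a positive log2FC, 4 with an unadjusted p under 0.05 and none called, and their sums did not overlap, at 851 to 1051 CPM in C and 1099 to 1467 CPM in DOP. The part of macrophages or endothelial cells in the HOXA9 difference was not tested.

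Among the other members of this comparison, most had positive log2FC without passing the test. Of the 29 genes, 25 (86.2%) had a log2FC above 0, with a median of 0.31, beside 52.2% of all tested genes with a median of 0.01. The count of 25 held with the size factors of DESeq2 and with upper-quartile scaling, and it was 23 with flow cell in the model. An unadjusted p under 0.05 was reached by 13 of the 29, 12 higher and 1 lower, beside 17.6% over all genes. No overlap between DOP and C was seen for 5 members, HOXA3, HOXA9, HOXB4, HOXB5 and HOXC11, all with DOP above C. Of all tested genes, 3.47% had no overlap in either direction and 1.7% had DOP above C.

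HOXB5 had 0.44, 0.73, 0.86, 0.90 and 0.46 CPM in C 1 to C 5 and 1.37, 1.40, 1.14, 1.58 and 0.98 CPM in DOP 1 to DOP 5. Its log2FC was 0.92 ± 0.24, with an adjusted p of 0.0869 in edgeR. HOXB8, the highest-numbered HOXB member tested, had 2.40, 1.07, 1.97, 1.29 and 1.76 CPM in C and 2.65, 2.60, 2.19, 4.09 and 3.10 CPM in DOP, and its groups overlapped only through C 1. Its log2FC was 0.79 ± 0.23, with an adjusted p of 0.114 in edgeR. HOXA11, a posterior gene of limb and kidney, was the member with a negative log2FC and an unadjusted p under 0.05. HOXA11 had 5.20, 4.78, 6.18, 7.32 and 4.47 CPM in C and 4.54, 4.15, 4.78, 3.83 and 3.24 CPM in DOP, with overlap between the groups and a log2FC of -0.44 ± 0.18. HOXB5 was named here after its values were seen.

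**Figure D3:**
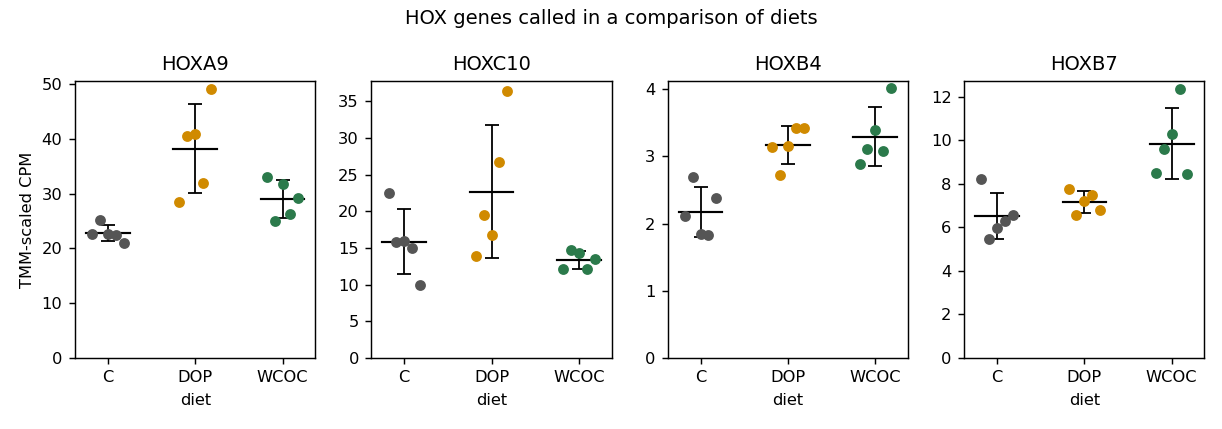
TMM-scaled CPM of HOXA9, HOXC10, HOXB4 and HOXB7 in each pig, by diet, with the mean (horizontal line) and SD (bar) of the 5 pigs. HOXA9 in DOP lies between 28.5 and 49.2, above all C values, HOXB7 in WCOC lies between 8.44 and 12.4, above the other diets, and the HOXC10 values of DOP spread from 13.9 to 36.5.

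The comparison of WCOC with C asked the same of the feed with wet olive cake, against the same 5 control pigs, so the C values enter both comparisons. HOXB7 and HOXB4, genes of the middle of the HOXB cluster that are best known from the trunk axis and from blood progenitors, were the 2 members called, and both were higher in WCOC. Of all tested genes, 6.25% were called in this comparison, 2.33% with WCOC higher. HOXB7 had 8.24, 5.47, 5.99, 6.31 and 6.56 CPM in C 1 to C 5, 7.75, 6.57, 7.19, 7.51 and 6.80 CPM in DOP 1 to DOP 5 and 8.51, 9.62, 10.3, 12.4 and 8.44 CPM in WCOC 1 to WCOC 5. All WCOC values lay above all values of C and of DOP, with C 1 close below. The log2FC of HOXB7 against C was 0.60 ± 0.13 (SE, n = 5 each) with an adjusted p of 0.0141 in edgeR, and against DOP it was 0.46 ± 0.13 with an adjusted p of 0.0361, under the limit on the fold.

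HOXB4 had 2.11, 2.69, 1.85, 1.83 and 2.39 CPM in C 1 to C 5, 3.13, 2.72, 3.15, 3.42 and 3.42 CPM in DOP 1 to DOP 5 and 2.88, 3.11, 3.40, 3.08 and 4.01 CPM in WCOC 1 to WCOC 5. The C values lay below all values of both other diets, by a narrow margin for C 2 and DOP 2. The log2FC of HOXB4 was 0.60 ± 0.15 in WCOC vs C, with an adjusted p of 0.0225 in edgeR, and 0.54 ± 0.15 in DOP vs C, with an adjusted p of 0.0970. For WCOC vs DOP it was 0.06, with a 95% interval from -0.26 to 0.37. The values of WCOC and C did not overlap for 2 of the 29 members, HOXB4 and HOXB7, which is 6.90% beside 7.62% of all tested genes, a share close to the background. With WCOC above C, the background was 3.75%.

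On flow cell A alone, with C 1 to C 4, the log2FC was 0.59 for HOXB7 and 0.63 for HOXB4, with adjusted p of 0.0744 and 0.0919 in edgeR, and no member was called, with 9 members at an unadjusted p under 0.05. The HOXB7 call was lost without C 2, C 3 or WCOC 4, where its log2FC was at least 0.51, and the HOXB4 call was lost without C 3, C 4 or WCOC 5, where it was at least 0.52.

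All 7 tested HOXB members had a log2FC above 0 in WCOC vs C, from 0.10 for HOXB2 to 0.73 for HOXB3, with a median of 0.60. HOXB3 (0.73), HOXB5 (0.72) and HOXB6 (0.47) had adjusted p between 0.0718 and 0.0776 in edgeR and did not pass. In the HOXA cluster 6 of 7 members, in HOXC 6 of 9 and in HOXD 5 of 6 had a log2FC above 0. Over the 29 members the count was 24 (82.8%) with a median of 0.27, beside 50.6% of all tested genes with a median of 0.00, and the count of 24 held with the size factors of DESeq2 and with upper-quartile scaling. An unadjusted p under 0.05 was reached by 9 members, all higher in WCOC, beside 26.4% of all tested genes in either direction.

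HOXA3, an anterior HOXA gene of the pharyngeal arches, had between 9.46 and 13.4 CPM in C and 22.6, 10.9, 13.97, 18.01 and 17.1 CPM in WCOC, with WCOC 2 inside the C range. Its log2FC was 0.57 ± 0.16, with an adjusted p of 0.0364 in edgeR, just below the limit on the fold. HOXA3 was named here after its values were seen. HOXA5, the most abundant member, had 86.9, 123, 77.6, 82.9 and 134 CPM in C, 129, 89.7, 136, 97.7 and 105 CPM in DOP and 224, 84.7, 166, 159 and 141 CPM in WCOC. WCOC 2 was again the exception, within the C range, while the other WCOC values lay above all C values. WCOC 2 also had the highest sums of this diet for progenitor and fibroblast markers, 7482 CPM against 2631 to 5115 CPM, and for macrophage markers, 270 CPM against 104 to 199.97 CPM, and their part in this was not tested. The HOXA5 log2FC in WCOC vs C was 0.62 ± 0.22, with an adjusted p of 0.0931 in edgeR.

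Markers of other cells also differed between WCOC and C. Of 8 tested macrophage markers, 5 were called lower in WCOC. None of the 8 had a positive log2FC (median -1.17), and all 8 had an unadjusted p under 0.05 in edgeR. Their summed level was 217 to 643 CPM in C and 104 to 270 CPM in WCOC. Of 7 tested markers of progenitors and fibroblasts, LUM and COL1A1 were called lower. Only 1 of the 7 had a positive log2FC (median -0.51), and 5 had an unadjusted p under 0.05 in edgeR. The sum was 7198 to 12512 CPM in C and 2631 to 7482 CPM in WCOC. Of 9 adipocyte markers, 6 had a positive log2FC, and ADIPOQ was the 1 called, higher in WCOC. Lower means in WCOC were seen for CIDEC (579 CPM in C, 442 in WCOC), CEBPA (781 and 703) and FABP4 (3431 and 3362). The adipocyte sums were 11786 to 15466 CPM in C and 13883 to 20005 CPM in WCOC. ADIPOQ itself, with means of 3691 and 5849 CPM, was their largest part. All 5 endothelial markers had a positive log2FC (median 0.42), 4 with an unadjusted p under 0.05, and CLDN5 was called higher, with sums of 851 to 1051 CPM in C and 934 to 1531 CPM in WCOC. No marker of these 4 lists was at 0 in all libraries, and their part in the HOXB7 and HOXB4 differences was not tested.

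**Figure D4:**
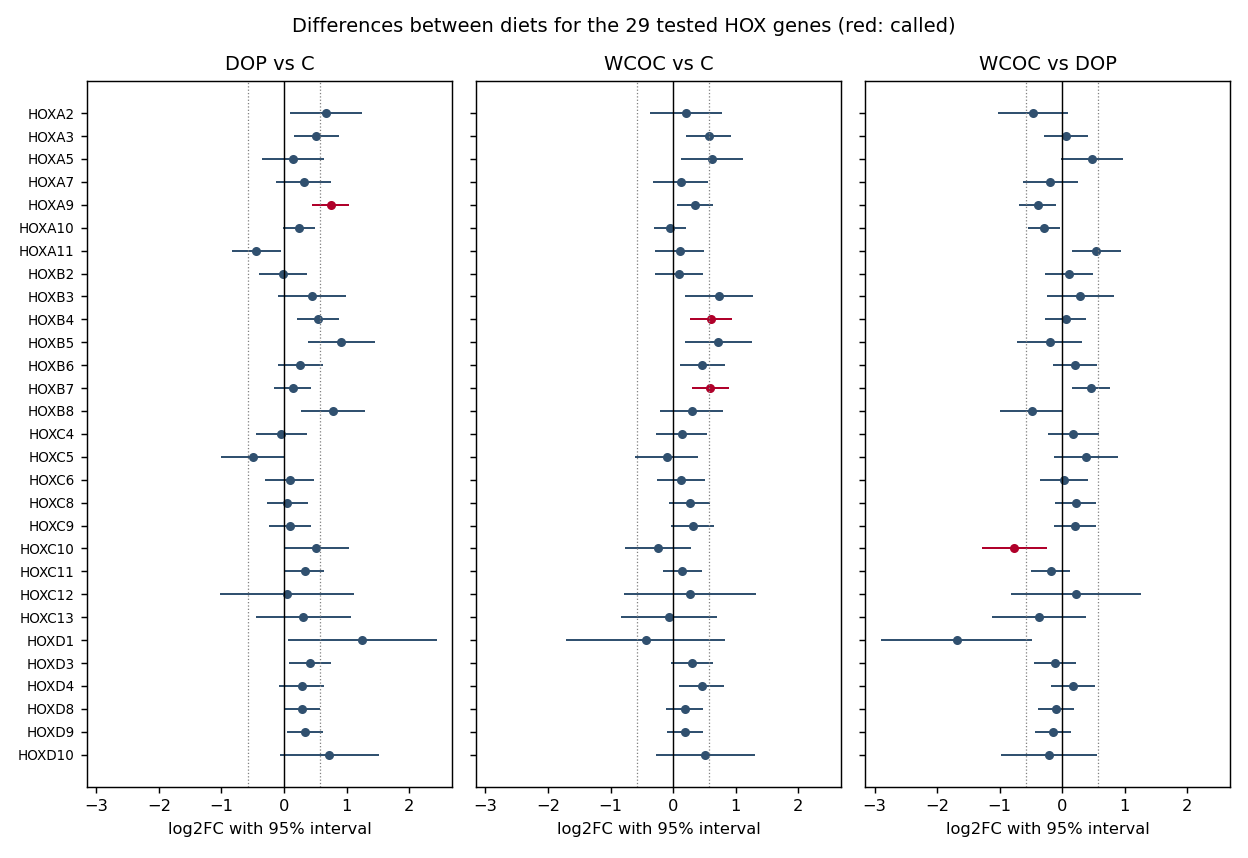
The log2FC of the 29 tested HOX genes with its 95% interval in the 3 comparisons of diets, with called genes in red and dotted lines at the limit of 0.58 in either direction. HOXA9 is called in DOP vs C, HOXB4 and HOXB7 in WCOC vs C and HOXC10 in WCOC vs DOP, and the widest intervals are those of HOXD1 and HOXC12.

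Between the 2 olive feeds, WCOC against DOP, HOXC10 was the 1 member called, and it was lower in WCOC, while 7.76% of all tested genes were called, 5.11% with WCOC lower. HOXC10 had 22.5, 15.8, 15.96, 15.04 and 9.97 CPM in C 1 to C 5, 13.9, 19.5, 16.8, 26.7 and 36.5 CPM in DOP 1 to DOP 5 and 12.2, 14.8, 14.3, 12.1 and 13.5 CPM in WCOC 1 to WCOC 5. The WCOC values were tight, DOP 5 and DOP 4 were the highest of all libraries, and DOP 1 lay inside the WCOC range. The log2FC of HOXC10 was -0.76 ± 0.24 in WCOC vs DOP, with an adjusted p of 0.0496 in edgeR. It was 0.52 ± 0.24 in DOP vs C and -0.24 ± 0.24 in WCOC vs C, with adjusted p of 0.274 and 0.546.

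Skeletal muscle transcripts also differed between the libraries of this comparison. The summed muscle markers were 1976, 43.1, 3336, 208 and 75.7 CPM in C 1 to C 5, 31.6, 9845, 198, 5379 and 41697 CPM in DOP 1 to DOP 5 and 199, 92.7, 17.1, 649 and 54.5 CPM in WCOC 1 to WCOC 5. DOP 5 was the highest library for both, while C 1, with fewer muscle transcripts than DOP 2, had more HOXC10. Of 5 tested muscle markers, TNNT3 and TNNC2, subunits of fast-twitch troponin, were called lower in WCOC than in DOP. None of the 5 had a positive log2FC (median -5.83), and all 5 had an unadjusted p under 0.05 in edgeR. The log2FC of HOXC10 was -0.53 without DOP 5 and -0.21 without the 3 libraries over 5000 CPM of muscle markers, with adjusted p of 0.128 and 0.793 in edgeR. With the log2 muscle sum in the model it was -0.32, with an adjusted p of 0.465. With flow cell in the model, which separates WCOC from DOP and rests on C 5, it was -1.56 in WCOC vs DOP and 1.19 in DOP vs C, with adjusted p of 0.272 and 0.283. Whether muscle cells account for the difference was not tested. The call also depended on the other libraries, since it was kept in 2 of 10 omissions, those of DOP 1 and of DOP 3.

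**Figure D5:**
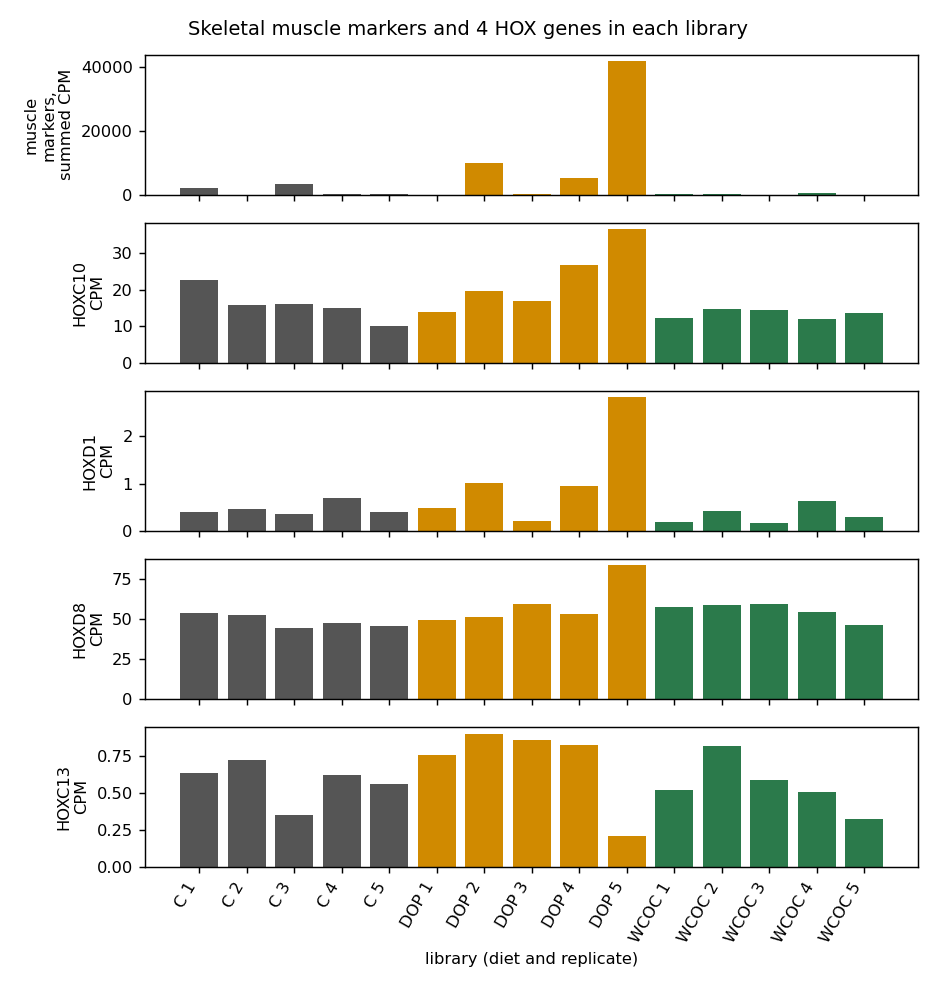
Summed CPM of 6 skeletal muscle markers and CPM of HOXC10, HOXD1, HOXD8 and HOXC13 in each library, coloured by diet. DOP 5 has the highest muscle sum (41697 CPM), HOXC10 (36.5 CPM), HOXD1 (2.82 CPM) and HOXD8 (83.2 CPM), and the lowest HOXC13 (0.21 CPM).

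Other HOX genes also stood apart in DOP 5. HOXD1, the anterior end of the HOXD cluster, had 0.39, 0.47, 0.35, 0.70 and 0.40 CPM in C, 0.48, 1.02, 0.22, 0.94 and 2.82 CPM in DOP and 0.20, 0.41, 0.16, 0.64 and 0.30 CPM in WCOC. Its 3 highest libraries, DOP 5, DOP 2 and DOP 4, were the 3 over 5000 CPM of muscle markers. The HOXD1 log2FC in WCOC vs DOP was -1.68 ± 0.56, with an adjusted p of 0.0603 in edgeR. HOXD1 was named here after its values were seen. HOXD8, the highest HOXD member, had 53.4, 52.6, 44.1, 47.1 and 45.6 CPM in C, 49.2, 51.2, 58.9, 53.1 and 83.2 CPM in DOP and 57.5, 58.6, 59.2, 54.1 and 46.1 CPM in WCOC, and apart from DOP 5 these values overlapped. HOXC13 had 0.64, 0.73, 0.35, 0.62 and 0.56 CPM in C, 0.76, 0.91, 0.86, 0.83 and 0.21 CPM in DOP and 0.52, 0.82, 0.59, 0.51 and 0.32 CPM in WCOC, with DOP 5 as the lowest of all libraries.

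HOXD10, the highest-numbered HOXD member tested, had 0.64, 0.68, 0.92, 0.78 and 1.46 CPM in C, 0.64, 2.15, 1.51, 1.28 and 1.88 CPM in DOP and 2.29, 1.05, 0.65, 1.21 and 1.27 CPM in WCOC. The diets overlapped widely, and none of its comparisons passed the test. For HOXA11, the WCOC values of 4.75, 8.05, 5.29, 5.65 and 6.31 CPM gave a log2FC of 0.55 ± 0.18 against DOP, with an adjusted p of 0.0542 in edgeR. Over the 29 members, 15 had a log2FC above 0 in WCOC vs DOP, with a median of 0.03 beside 0.00 for all tested genes. Above 0 were also 50.1% of all tested genes. An unadjusted p under 0.05 was reached by 7 members, 2 higher and 5 lower in WCOC, beside 28.1% of all tested genes. HOXB7 was the 1 member without overlap between these diets, beside 8.9% of all tested genes, or 4.14% with WCOC above DOP.

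Among the genes that work with the HOX proteins or set their domains, EZH2 was the 1 called. HOX proteins bind DNA together with PBX, MEIS and PKNOX cofactors, of which 7 of 9 could be matched and 6 tested. None was called in any comparison by edgeR, with 1, 1 and 2 at an unadjusted p under 0.05, and the median log2FC was 0.02 for DOP vs C, -0.19 for WCOC vs C and -0.06 for WCOC vs DOP. PKNOX1, the cofactor with the highest CPM, had a log2FC of -0.43 in WCOC vs C and -0.51 in WCOC vs DOP, with adjusted p of 0.0338 and 0.0157 in edgeR, under the limit on the fold. PBX2 was listed at 0 in every library. Of 18 tested regulators of the clusters (polycomb and trithorax proteins, retinoic acid receptors and enzymes), 1 was called, EZH2, in both comparisons with WCOC. Of all tested genes, 6.25% were called in WCOC vs C and 7.76% in WCOC vs DOP, so this count does not stand above the background. EZH2 is a methyltransferase of polycomb complex PRC2, which keeps HOX genes silent. Its part in the HOX levels was not tested.

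EZH2 was at 8.57 ± 1.97 CPM in C (5.93 to 10.9), 8.49 ± 1.46 CPM in DOP (6.98 to 10.9) and 4.05 ± 0.99 CPM in WCOC (3.01 to 5.52; SD, n = 5 each). The WCOC values lay below all others. The log2FC of EZH2 was -1.08 ± 0.20 in WCOC vs C and -1.07 ± 0.20 in WCOC vs DOP, with adjusted p of 0.00464 and 0.00498 in edgeR. PHC1, a subunit of polycomb complex PRC1, had a log2FC of 0.46 in DOP vs C and 0.34 in WCOC vs C, with adjusted p of 0.0277 and 0.0152 in edgeR, and KDM6B, a demethylase that removes the mark of PRC2, had 0.40 in WCOC vs C, with an adjusted p of 0.0340, all under the limit on the fold. EZH1, the regulator with the highest CPM, had means of 79.8, 91.7 and 96.4 CPM in C, DOP and WCOC and was not called. EED and SUZ12, core subunits of PRC2, and BMI1 and RNF2 of PRC1 were not called either. Over the 18 regulators the median log2FC was 0.02 for DOP vs C, 0.14 for WCOC vs C and 0.05 for WCOC vs DOP.

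Other transcription factors of position in fat and limb mesenchyme were expressed beside the HOX genes. Of 33 listed, 30 could be matched and 19 tested, and none was called in any comparison by edgeR, with 3, 4 and 4 at an unadjusted p under 0.05 and medians of 0.04 for DOP vs C, 0.02 for WCOC vs C and -0.08 for WCOC vs DOP. PRRX1, a limb mesenchyme gene, had a log2FC of -0.50 in WCOC vs C, with an adjusted p of 0.0340 in edgeR, under the limit on the fold. TWIST2 had the highest CPM of them, with C, DOP and WCOC means of 78.5, 63.1 and 79.3. EN1, a dorsal-ventral gene of the limb that also marks precursors of dorsal dermis, had means of 13.3, 13.9 and 18.6 CPM.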

How the data were processed

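Backfat RNA was sequenced as paired-end libraries, 1 per pig, from 5 pigs on each of 3 diets (15 libraries). According to the submitters' processing notes and the methods of the study, reads were checked with FastQC and aligned with HISAT2 to Sscrofa11.1, and HTSeq counted reads per Ensembl gene. The deposited values are these raw counts, not normalized by the authors, for 30477 genes plus 5 lines of uncounted reads, which were left out and hold the rest beside the 67.2% to 76.6% of a library on genes. The annotation release and strand option are not given in the sources used here. No column lacked a sample.

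Genes were kept by filterByExpr of edgeR 4.0.16 in R 4.3.3 with the diets as groups (14918 genes), scaled by TMM, and fitted over all 15 libraries by quasi-likelihood with 1 mean per diet. Each pair of diets was contrasted in a two-sided test, and p-values were adjusted by Benjamini-Hochberg across the 14918 genes. Calls needed an adjusted p under 0.05 together with an absolute log2FC of 0.58 or more. For standard errors, unshrunk coefficients were divided by the root of F. CPM and log2 values (prior count of 1) were computed here. Symbols were matched to gene identifiers through a reference table, and lengths (union of exons), positions and sequences came from RefSeq on Sscrofa11.1, the build of the files. The workflow was tested on simulated data. No 2 libraries agreed within sampling noise. P-values measure the spread between pigs of 1 pen.

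The genes named were the called members, the highest member per kilobase and the highest tested paralog number of each cluster, and members with at least 10 counts that were not kept. Others are marked as named after their values were seen. Members and gene lists were chosen with earlier results of these data known. The run identifiers gave the flow cell and lane. Alternatives were other scalings and filters, DESeq2 1.42.0, limma-voom (limma 3.58.1), robust quasi-likelihood, a fit without the diet left over, a block for the replicate number, flow cell as a covariate or flow cell A alone, no limit on the fold, CPM not divided by length, and each library left out. Added after seeing the data were 3 libraries left out for muscle markers, the log2 sum of these markers as a covariate, mean transcript length, and shares without HOXA5. Figures were made with Python 3.11.15 and matplotlib 3.10.9. Protein sequences were not used here, and some genes and sequences are not reported here.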

Additional observations from a re-analysis of the deposited data

Results flagged for a closer look

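In DOP 5, HOXD8 was at 83.2 CPM, far above the other 4 DOP libraries (49.2 to 58.9 CPM), and HOXC13 was at 0.209 CPM, far below them (0.76 to 0.91 CPM). Both were singled out by the gap to the nearest library relative to the range of the diet, and they were 2 of 33 groups tested this way, a rate of the order that chance alone gives. DOP 5 also held the highest level of skeletal muscle markers, 41697 summed CPM, and its part in these values was not tested.

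HOXB7 and HOXC10 were singled out because WCOC and DOP differed in them at an adjusted p under 0.05. This contrast, which is also the difference of the effects against the shared controls, gave a log2FC of 0.46 for HOXB7 and -0.76 for HOXC10, with adjusted p of 0.0361 and 0.0496 in edgeR. The HOXB7 values of the WCOC pigs lay above all DOP pigs, and those of HOXC10 overlapped. HOXB7 stayed under the limit on the fold. The HOXC10 log2FC was -0.21 (adjusted p of 0.793) without the 3 libraries rich in muscle markers, and its call was kept in 2 of 10 omissions of a library. Pen and flow cell cannot be told apart from diet here.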

How the results depend on the processing

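None of the tested alternatives reversed the sign of a called member, but no call among the HOX genes held under all of them. The number of members called was 1 in DOP vs C, 2 in WCOC vs C and 1 in WCOC vs DOP. With DESeq2 it was 3 (HOXA9, HOXB5 and HOXB8), 4 (HOXA5, HOXB3, HOXB4 and HOXB7) and 2 (HOXC10 and HOXD1). With only the diets compared it was 0, 1 and 0, and with the muscle marker sum as a covariate also 0, 1 and 0. With flow cell as a covariate it was 0 in DOP vs C and 0 in WCOC vs DOP, as it was without the 3 libraries rich in muscle markers, and on flow cell A alone it was 0 in WCOC vs C. In WCOC vs DOP no filter and limma-voom gave 0, no limit on the log2FC gave 2 (HOXB7 and HOXC10), and upper-quartile scaling called HOXA11 in place of HOXC10. Leaving out each library in turn gave 0 to 1, 0 to 5 and 0 to 2 members in the 3 comparisons, with 0 in WCOC vs C without C 3 and 5 (HOXA3, HOXA5, HOXB3, HOXB4 and HOXB7) without WCOC 2. The shared replicate numbers did not pair the pigs, since 3 of 15 pairs of same-numbered libraries had a correlation of deviations over 0.1 (-0.50 to 0.34), and with the replicate number as a block 0, 1 and 0 members were called. The number of members kept stayed at 29 in all omissions and was 24 with at least 10 counts in every library and 25 at a mean of at least 1 CPM. With CPM not divided by length, the share of groups 1 to 3 was 14.98%, of groups 4 to 8 57.6%, of groups 9 to 10 24.5%, of HOXB 7.06% and of HOXD 25.01%. With HOXA5 left out the shares were 18.7%, 45.4%, 31.2% and 4.73% for groups 1 to 3, 4 to 8, 9 to 10 and 11 to 13, and 23.2%, 15.6%, 27.7% and 33.4% for HOXA, HOXB, HOXC and HOXD. Over the omissions the shares stayed within 10.5% to 10.8% for groups 1 to 3, 67.8% to 69.0% for 4 to 8, 17.6% to 18.6% for 9 to 10 and 2.62% to 2.81% for 11 to 13, and within 54.9% to 56.2% for HOXA, 8.80% to 9.09% for HOXB, 15.8% to 16.5% for HOXC and 18.9% to 19.5% for HOXD. Where edgeR or limma-voom called 0 members, 5 to 12 (DOP vs C), 9 (WCOC vs C) and 1 to 7 (WCOC vs DOP) had an unadjusted p under 0.05. The cause of these changes was not tested. Depth limits the members at or below about 1 CPM, such as HOXC12, whose lowest library had 2 counts.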
